A study of Mus musculus with 12 samples.

Results

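The nuclear genes for subunits of the mitochondrial respiratory chain and ATP synthase were followed in mouse male germ cells with and without a conditional deletion of Hdac3. Members were chosen by symbol alone, as the Ndufa, Ndufb, Ndufc, Ndufs and Ndufv genes of complex I, Sdha to Sdhd of complex II, the Uqcr genes of complex III, the Cox4 to Cox8 genes of complex IV and the Atp5 genes of complex V. They numbered 80 of the 21429 gene symbols in the tables, with 35 in complex I, 4 in complex II, 8 in complex III, 17 in complex IV and 16 in complex V. The rule reads symbols and no expression value, although it was set with earlier results of these data known. RNA came from pachytene spermatocytes (PS), meiotic cells in prophase, and from round spermatids (RS), the haploid cells formed by meiosis. Control mice had the genotype Hdac3fl/+, also labelled wild type, without mention of a cre transgene. Knockout (KO) mice had the genotype Stra8-cre/Hdac3fl/-, in which the Stra8 promoter drives Cre recombinase in germ cells before meiosis. Each of the 4 groups, PS and RS of either genotype, had 3 libraries, described by the submitters as biological triplicates, and the sources used here give no age for the mice.

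Complexes I and II pass electrons from NADH and succinate to ubiquinone, complex III passes them on to cytochrome c, and complex IV, cytochrome c oxidase, hands them to oxygen. Complexes I, III and IV pump protons across the inner mitochondrial membrane, and complex V, the ATP synthase, lets them flow back to make ATP. All subunits of complex II and most subunits of the other complexes are encoded in the nucleus, and several subunits of complex IV have isoforms that differ between tissues, including forms found mainly in testis. There are 3 symbols that are counted by name only. Ndufa4 was first assigned to complex I and was later found with complex IV, Cox7a2l encodes a factor of supercomplex assembly, and Atp5s, named Dmac2l in RefSeq, is not a core subunit of the ATP synthase.

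The libraries held between 11205732 and 17467583 counts over all genes. Levels are CPM (counts scaled to a common library size) after TMM scaling, and the detection floor of 3 counts lay at 0.152 to 0.244 CPM. Each group held replicate 1, replicate 3 and a remaining replicate, whose column matches the group and no single title. Hdac3 stood between 53.0 and 82.5 CPM in control PS and between 17.8 and 24.8 in KO PS, and between 42.3 and 52.9 in control RS and 13.5 and 17.1 in KO RS. The reference used here lists 28 members whose exons overlap those of another gene, 25 of them on the opposite strand, such as Uqcrc2 with Pdzd9 and Atp5a1 with Haus1. The sources used here do not say whether counting used strand, and reads of such pairs may be shared. The summed level of 10 PS markers was 3078 to 4039 CPM in PS and 1278 to 1718 in RS. That of 10 RS markers was 373 to 2801 in PS and 4629 to 20487 in RS. Ndufs5 and Cox8b were not analysed here.

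In control PS the levels of the members differed widely. Per length, as CPM per kilobase of transcript (RPKM), the highest member of complex IV was Cox8c, a testis form of subunit 8, at 1033 ± 94.2 (SD, n = 3). Cox6b2, the testis form of subunit 6b, followed at 666 ± 274, and Cox4i1, the general form of subunit 4, at 489 ± 21.5. The highest member of complex III was Uqcrq, a small subunit, at 428 ± 109 RPKM. Atp5b, the catalytic beta subunit of the ATP synthase, led complex V at 359 ± 21.4 RPKM. Ndufa7, an accessory subunit, led complex I at 190 ± 46.7 RPKM, and Sdha, the flavoprotein of succinate dehydrogenase, led complex II at 80.7 ± 4.18 RPKM. The SD was larger relative to the mean for Cox6b2 than for Atp5b.

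Isoforms of the same subunit stood at very different levels. In control PS Cox6b2 had 212, 454 and 264 CPM in replicate 1, replicate 3 and the remaining replicate, while Cox6b1, the general form, had 7.58, 21.6 and 18.5 CPM. Cox7b2, the testis form of subunit 7b, had 172, 283 and 165 CPM, and Cox7b, its general form, had 2.65, 2.87 and 5.58 CPM. Cox8c had 424, 504 and 492 CPM, and Cox8a, the general form, had 7.40, 14.4 and 11.8 CPM. The testis form was above the general form in all 12 libraries for each of these pairs, as the plot of isoform levels shows. The forms known from muscle, heart or lung were nearly silent. Cox6a2, the muscle and heart form of subunit 6a, had at most 2 counts in any library, and Cox4i2, the lung form of subunit 4, had at most 4. Cox7a1, the muscle and heart form of subunit 7a, had 0 to 19 counts. Of their general partners, Cox6a1 had 69.7 to 145 CPM in control PS and Cox7a2 had 137 to 281 CPM. The 3 genes Atp5g1, Atp5g2 and Atp5g3, which encode the same c subunit of the membrane ring behind different leader peptides, had 40.5 ± 10.5, 16.3 ± 5.64 and 47.6 ± 13.1 CPM (SD, n = 3) in control PS. Atp5g1 was thus not separated from Atp5g3 by more than the spread.

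**Figure D1:**
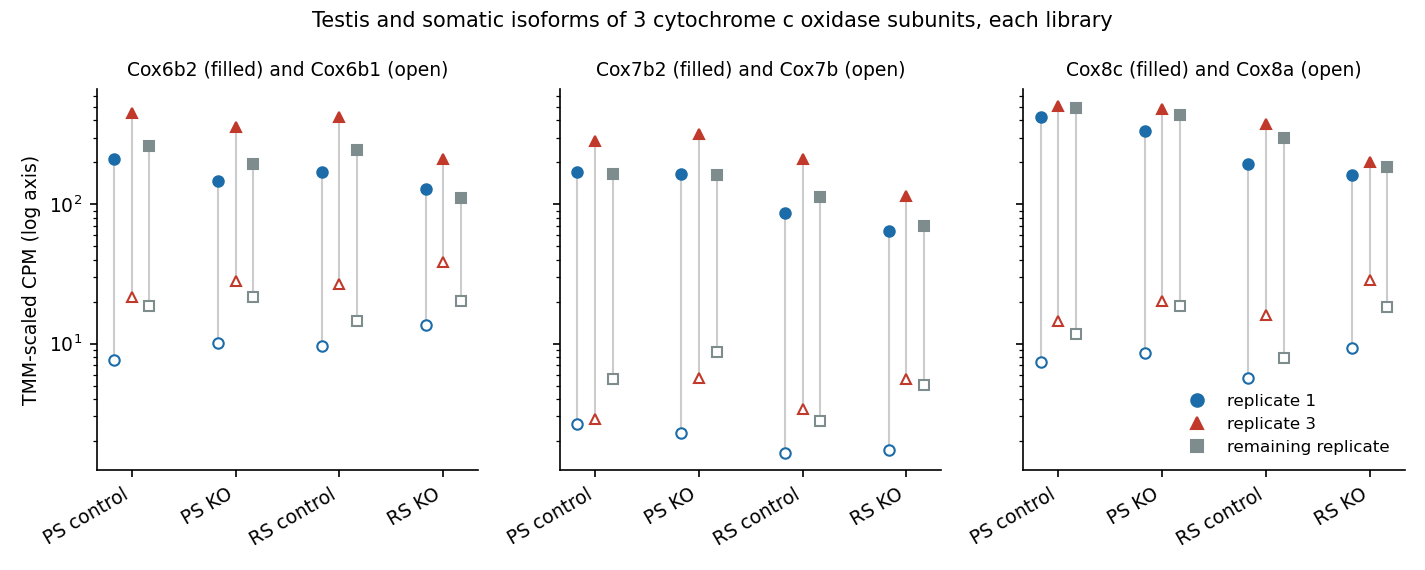
TMM-scaled CPM on a log axis in each of the 12 libraries for testis isoforms (filled) and general isoforms (open) of cytochrome c oxidase subunits 6b, 7b and 8. Marker shape gives the replicate, a line joins the isoforms within 1 library, and the testis form lies above the general form in every library.

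Promoter windows of these isoforms are shown because the ratio within each pair was lower in KO RS than in control RS, as given with the KO results. Each runs from 250 bases before to 50 after the start of a gene, from RefSeq on GRCm38.p6, in the direction of transcription. The sequence table used here holds 66 of the 80 members, 2 of them under a newer RefSeq symbol. No sequence was available there for Cox8c, so its window is not shown. Capitals mark CCAAT, the letters of the CCAAT box, on either strand, and CCGGAAGT, a motif bound by ETS factors such as GABP.
Cox6b1 (chr7:30626065-30626364, minus strand): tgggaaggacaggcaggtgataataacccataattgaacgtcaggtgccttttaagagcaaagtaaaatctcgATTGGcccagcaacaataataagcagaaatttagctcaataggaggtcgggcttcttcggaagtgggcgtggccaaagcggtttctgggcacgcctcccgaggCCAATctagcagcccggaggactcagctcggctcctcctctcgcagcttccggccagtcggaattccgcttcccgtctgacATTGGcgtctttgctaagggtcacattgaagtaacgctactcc
Cox6b2 (chr7:4753045-4753344, minus strand): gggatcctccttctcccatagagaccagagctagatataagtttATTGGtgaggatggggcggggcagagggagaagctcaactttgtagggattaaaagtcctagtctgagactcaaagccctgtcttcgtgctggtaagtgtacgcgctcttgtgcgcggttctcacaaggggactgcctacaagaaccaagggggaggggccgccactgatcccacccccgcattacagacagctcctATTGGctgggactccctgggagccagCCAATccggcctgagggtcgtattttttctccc
Cox7b (chrX:106015450-106015749, plus strand): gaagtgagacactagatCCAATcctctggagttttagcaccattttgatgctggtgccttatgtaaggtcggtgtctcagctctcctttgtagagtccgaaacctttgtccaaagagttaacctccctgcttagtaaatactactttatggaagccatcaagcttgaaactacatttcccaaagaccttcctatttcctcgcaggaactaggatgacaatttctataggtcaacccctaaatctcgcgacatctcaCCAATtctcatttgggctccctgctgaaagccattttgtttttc
Cox7b2 (chr5:71548156-71548455, minus strand): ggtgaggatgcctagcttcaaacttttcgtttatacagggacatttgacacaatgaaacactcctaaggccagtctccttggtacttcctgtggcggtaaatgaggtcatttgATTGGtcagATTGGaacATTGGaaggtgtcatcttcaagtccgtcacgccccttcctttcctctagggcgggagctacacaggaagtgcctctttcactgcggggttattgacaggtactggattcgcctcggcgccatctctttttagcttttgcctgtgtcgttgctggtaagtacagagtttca
Cox8a (chr19:7217567-7217866, minus strand): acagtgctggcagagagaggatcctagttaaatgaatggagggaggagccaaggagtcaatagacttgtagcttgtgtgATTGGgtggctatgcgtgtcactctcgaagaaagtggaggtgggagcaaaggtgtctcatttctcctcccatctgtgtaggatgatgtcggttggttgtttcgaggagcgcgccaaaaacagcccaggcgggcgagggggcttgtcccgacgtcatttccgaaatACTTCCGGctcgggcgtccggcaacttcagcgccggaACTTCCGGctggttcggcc
The Cox8a window held CCGGAAGT at 2 places, and the other 4 windows held none. Every one of the 5 windows held CCAAT, as did 41.1% of all promoters in the table. The windows of Cox6b2 and Cox7b2 had 10 CpG dinucleotides each, those of Cox6b1, Cox7b and Cox8a had 17, 5 and 19, and the median over members was 19 against 7 over all genes. Motif letters are a description of these windows and not evidence of binding.

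Searched on both strands, GCGCATGC, the core letters of the NRF1 motif, was found in the windows of 10 of the 66 members with a sequence, or 15.2%, against 3.05% of all 27025 genes. AAGATGGC, letters of the YY1 motif, was also found in 10 members, or 15.2%, against 3.19% of all genes. CCGGAAGT was found in 5 members (7.58% against 4.31%), TGACGTCA, the cyclic AMP response element, in 4 (6.06% against 2.03%), and CACGTG, an E-box, in 6 (9.09% against 8.09%). The members with NRF1 letters were Atp5g2, Atp5k, Atp5l, Cox6a1, Ndufa11, Ndufa6, Ndufa8, Sdhb, Uqcr11 and Uqcrc1. NRF1 and GABP are known as activators of nuclear genes for the respiratory chain. Members tend to have GC-rich promoters (median GC 57.3% against 52.7%), and the difference in these shares was not tested.

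The 3 X-linked members, Ndufa1, Ndufb11 and Cox7b, were among the lowest members in PS, a stage at which the sex chromosomes are known to be silenced. In control PS Ndufb11, a membrane subunit of complex I, had 3.13, 5.01 and 9.25 CPM, and Ndufa1, another small membrane subunit, had 5.23, 9.04 and 15.3. Of the 77 members that passed the filter on low counts in PS, 7 had a mean under 20 CPM in control PS. They were these X-linked genes with Ndufa4, Cox8a, Cox6b1 and Atp5g2, and the lowest mean among the other 70 was 26.7 CPM. In control RS the X-linked genes stayed low, with 4.23 ± 2.13 CPM for Ndufb11, 9.74 ± 5.71 for Ndufa1 and 2.60 ± 0.878 for Cox7b (SD, n = 3).

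The members together took 0.707%, 0.977% and 0.892% of all counts in control PS (replicate 1, replicate 3, remaining) and 0.660%, 1.01% and 0.807% in KO PS. In control RS they took 0.477%, 0.863% and 0.639%, and in KO RS 0.509%, 0.762% and 0.581%. The KO and control ranges overlapped in both cell types, and the mean difference of KO from control was -0.0343 percentage points in PS and -0.0424 in RS (exact two-sided permutation p = 0.8 in each, where 3 against 3 libraries allow no p below 0.1). Control RS was 0.199 percentage points lower than control PS (exact permutation p = 0.2), and the ranges overlapped. Of the 5 complexes, complex II alone had control cell types that did not overlap, at 0.0445 ± 0.00431% in PS and 0.0253 ± 0.00228% in RS (SD, n = 3; exact permutation p = 0.1, the smallest this design allows).

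**Figure D2:**
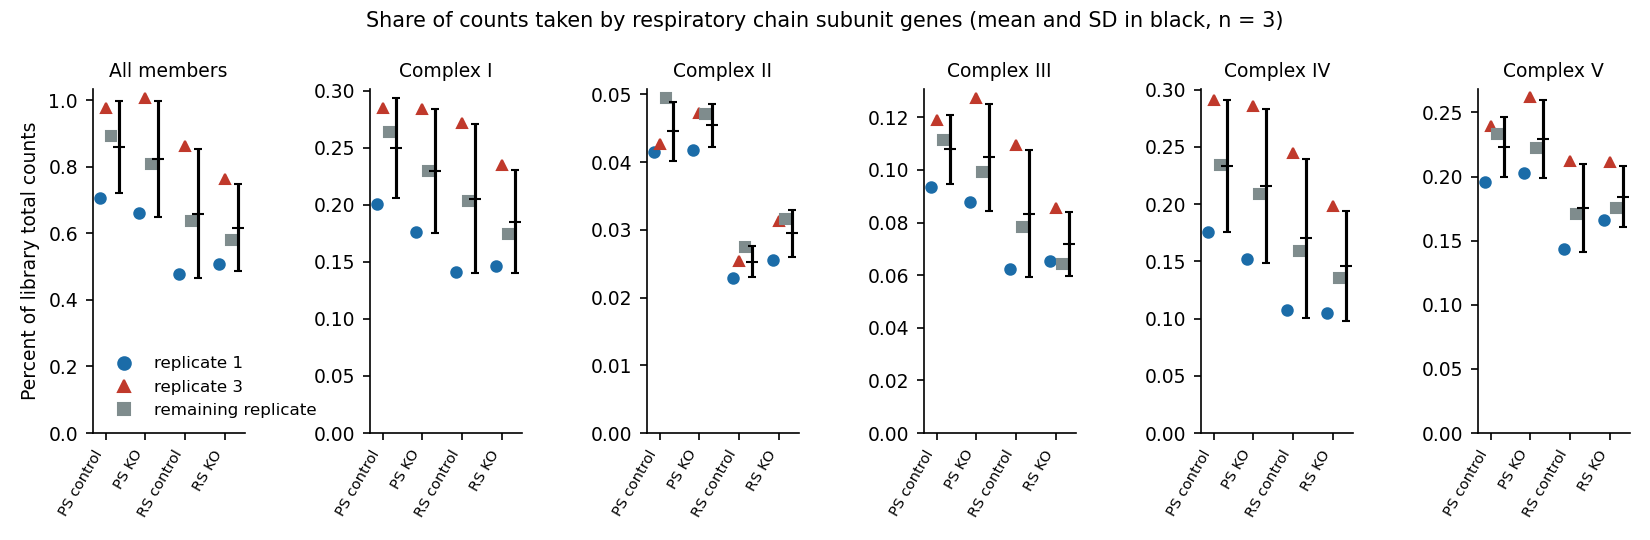
Percent of each library's counts taken by all members and by each complex, per library, with mean and SD of each group (n = 3) in black. Replicate 3 is the highest library of its group for all members in each of the 4 groups, and complex II separates control PS (0.0445%) from control RS (0.0253%).

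The libraries of a group also differed among themselves. Replicate 3 held the highest level of a member in 57 of 78 members in control PS, 68 in KO PS, 72 in control RS and 68 in KO RS, and 52 members were highest in replicate 3 of all 4 groups. The share of all genes that were highest in replicate 3 is not given here. The difference of replicate 3 from the other libraries was larger for short transcripts. Cox7c, a small subunit of complex IV, had 56.9, 159 and 74.4 CPM in control PS and 37.5, 197 and 74.5 CPM in control RS, whereas Atp5b, with a longer transcript, had 700, 721 and 642 CPM and 621, 673 and 610 CPM. For Cox7c replicate 3 stood far above both other libraries, and for Atp5b the libraries lay close together. The median log2 ratio of replicate 3 to the mean of the other 2 libraries, with 0.5 CPM added, was 0.94 for the 51 members with transcripts under 1000 bases in control RS and 0.41 for the 27 longer ones. Over all 1783 tested genes with transcripts under 1000 bases it was 0.58, and over all genes tested 0.01. In the other groups the members under 1000 bases stood at 0.49 (control PS), 0.65 (KO PS) and 0.73 (KO RS), and all genes under that length at 0.32, 0.24 and 0.32. Spearman's rho between transcript length and this ratio over the 78 members ran from -0.37 in control PS to -0.62 in control RS, as a description of members that share libraries. The median transcript was 738.5 bases for the members and 2636 for all genes tested. What made replicate 3 differ was not tested.

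**Figure D3:**
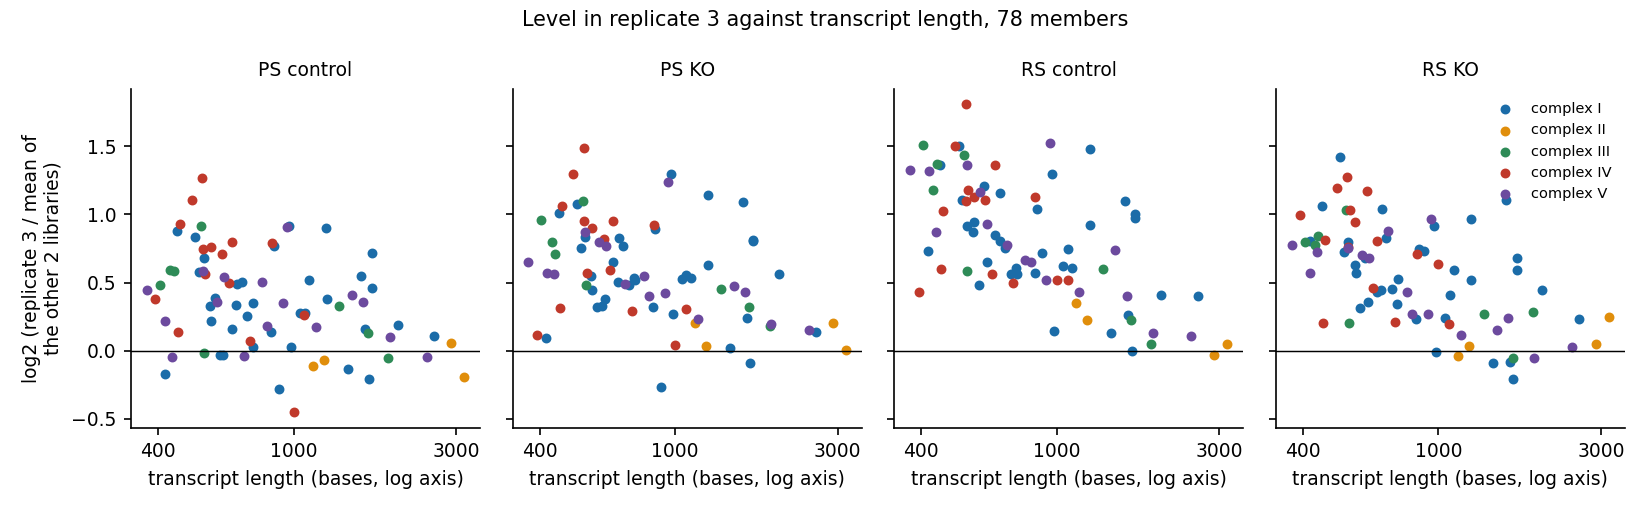
Log2 ratio of the level in replicate 3 to the mean of the other 2 libraries of its group against transcript length (log axis), for the 78 members tested across all libraries, coloured by complex. Short transcripts lie higher in each group, with medians of 0.94 under 1000 bases and 0.41 above in control RS.

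KO was compared with control in PS to ask whether loss of HDAC3 changed the members during meiosis. Without the replicate number as a block, none of the 77 members tested changed, where 5.41% of all 15272 genes did (edgeR quasi-likelihood test, adjusted p under 0.05). No member had an unadjusted p under 0.05, and DESeq2 called 0 as well. The median log2 fold change was -0.07 over the members and 0.06 over all genes, and 51 of the 77 were negative. By complex the medians were -0.09 for complex I, 0.03 for II, -0.03 for III, -0.00174 for IV and -0.07 for V. The replicate numbers were taken to pair the samples, and with the number as a block 3 members fell, or 3.90% of those tested, where 12.1% of all genes fell. Cox6b2 went from 212, 454 and 264 CPM to 147, 357 and 194 in KO, lower in each pair (log2 -0.40, SE 0.0873, edgeR adjusted p = 0.00843 with the block). Ndufa12, an accessory subunit at the base of complex I, went from 86.1, 144 and 114 CPM to 53.4, 112 and 101 (log2 -0.37, SE 0.114, adjusted p = 0.0379), and Uqcrq from 127, 214 and 179 to 93.4, 200 and 112 (log2 -0.36, SE 0.116, adjusted p = 0.0422). The groups overlapped for all 3 genes, while each KO library lay below the control of its number. Without the block, the log2 fold change ran from -0.53 without KO replicate 3 to -0.0756 without KO replicate 1 for Ndufa12, from -0.71 to -0.12 without the same libraries for Uqcrq, and from -0.82 without KO replicate 3 to 0.0053 without control replicate 3 for Cox6b2. In the same PS libraries 7 of 10 RS markers fell without the block, with sums of 1072 to 2801 CPM in controls and 373 to 982 in KO. Peritubular markers summed to 75.8 to 162 CPM in controls and 35.5 to 74.5 in KO, with 3 of 8 lower (5 with the block), and Sertoli markers to 465 to 1102 and 790 to 1522, with 0 of 10 higher (9 with the block). The part of these transcripts in the PS results was not tested. When the dependence of fold changes on transcript length and GC content was removed, the median of the members turned to 0.14. With the block and that trend removed 8 members were higher, or 10.4%, near the 10.5% of all genes that were. Lower members numbered 0, and the share of all genes lower there is not given here. Cox6b2, Ndufa12 and Uqcrq did not pass there (adjusted p = 0.177, 0.245 and 0.337).

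The same comparison was made in RS. Without the block 2 of 77 members fell, or 2.60%, where 12.4% of all 15934 genes fell, and no member rose, where 18.7% of all genes did (edgeR quasi-likelihood test; an unadjusted p under 0.05 was reached by 12 lower and 1 higher member, and DESeq2 called 9 lower and 1 higher). Uqcrfs1, the Rieske iron-sulfur protein of complex III, had 103, 160 and 108 CPM in control RS and 77.3, 83.8 and 61.7 in KO RS. The groups did not overlap, and the gene fell by 0.73 on the log2 scale (SE 0.215, edgeR adjusted p = 0.0301). Atp5s had 41.7, 74.7 and 47.3 CPM in control RS and 34.1, 33.7 and 26.5 in KO RS, again with no overlap, and fell by 0.79 (SE 0.235, adjusted p = 0.0309). Both were called with DESeq2 too, but neither without control replicate 3 or without the remaining KO library, where adjusted p was 0.0935 and 0.125 for Uqcrfs1 and 0.0980 and 0.126 for Atp5s. Without the remaining control library Uqcrfs1 stood at 0.0514, and without KO replicate 3 Atp5s stood at 0.0555. The promoter window of Uqcrfs1, shown because Uqcrfs1 is the core subunit called here, held TGACGTCA in capitals below.
Uqcrfs1 (chr13:30545267-30545566, minus strand): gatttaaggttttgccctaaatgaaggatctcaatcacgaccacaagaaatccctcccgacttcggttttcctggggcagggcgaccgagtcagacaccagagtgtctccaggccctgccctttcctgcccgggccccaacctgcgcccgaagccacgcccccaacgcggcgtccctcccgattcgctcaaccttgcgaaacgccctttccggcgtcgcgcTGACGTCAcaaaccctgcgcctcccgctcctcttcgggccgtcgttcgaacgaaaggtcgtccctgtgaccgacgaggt
Those letters were in 2.03% of all promoters, and nothing about a factor follows from them.

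The largest decrease was that of Uqcrq, with 80.0, 341 and 159 CPM in control RS and 66.3, 109 and 59.2 in KO RS. It did not pass (log2 -1.29, SE 0.446, adjusted p = 0.0505), and control replicate 3 stood far above the other control libraries. With no overlap between groups as the rule, Uqcrc1, a core protein of complex III, was also lower (312, 363 and 310 CPM to 306, 252 and 216), which makes 3 of 77 members lower with Atp5s and Uqcrfs1, against 21.8% of all genes. Uqcrc2, the other core protein of complex III, went from 59.0, 63.9 and 64.4 to 71.4, 87.6 and 72.6 CPM, and Atp5a1, the alpha subunit of the ATP synthase, from 208, 232 and 221 to 238, 243 and 240. These 2 were higher without overlap, against 25.7% of all genes.

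With the replicate number as a block the count in RS was much larger. Of 77 members 39 fell (50.6%, against 26.1% of all genes) and 8 rose (10.4%, against 28.8%). The fitted falls ran from -1.11 for Uqcrq to -0.32 for Cox7a2l on the log2 scale. They covered 18 of the 35 members of complex I, 1 of 4 in complex II, 5 of 8 in complex III, 8 of 14 tested in complex IV and 7 of 16 in complex V. The median over the members was -0.33 with the block and -0.38 without, against 0.01 and 0.02 over all genes. Beside Uqcrq, the largest falls were those of Cox6b2 (log2 -0.85, SE 0.152, adjusted p = 0.000600), Ndufb2 (-0.84, SE 0.154), Ndufc1 (-0.80, SE 0.147), Ndufb4 (-0.76, SE 0.133) and Uqcr10 (-0.76, SE 0.146), small accessory subunits. These sizes moved when 1 library was left out: without the block and without control replicate 3 the log2 fold change was -0.60 for Uqcrq, -0.47 for Cox6b2, -0.28 for Ndufb2, -0.24 for Ndufc1, -0.26 for Ndufb4 and -0.34 for Uqcr10. Without KO replicate 3 it was -1.22 for Cox6b2, -1.37 for Ndufb2, -1.31 for Ndufc1, -1.21 for Ndufb4 and -1.15 for Uqcr10, and without control replicate 1 it was -1.67 for Uqcrq. Ndufb2 had 11.8, 40.8 and 19.4 CPM in control RS and 7.68, 19.8 and 10.8 in KO RS, so that each KO library was below the control of its number while the groups overlapped. The counts with the block were not repeated with libraries left out. Without the block, where 2 members were lower with all libraries, the count moved with single libraries. It was 24 when control replicate 1 was left out, 0 when control replicate 3 or the remaining KO library was, and 1 when the remaining control library was. Of the 77 members 0 were lower and 1 was higher with all replicate 3 libraries left out, also without the block. The share of all genes called in these runs is not given here. In all, 43 of the 77 members were lower in KO in each of the 3 pairs and 15 were higher in each. The share of all genes that moved alike in each pair is not given here, so these counts have no background. The authors' deposited table, from their own test, listed 19 of the 80 members as lower in RS at an adjusted p under 0.05, and 0 as higher. Over all 21429 symbols the shares were 16.1% lower and 12.8% higher. Only 15934 of those symbols passed the filter on low counts in RS, against 77 of the 80 members, so these shares are not over genes of like counts.

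The members that rose with the block were Ndufa4, Cox8a, Ndufb11, Ndufc2, Ndufs8, Cox6b1, Atp5g2 and Uqcrc2. Ndufa4 had 3.29, 11.1 and 5.69 CPM in control RS and 9.01, 19.4 and 14.8 in KO RS (log2 1.20, SE 0.194, adjusted p = 0.000315), and Cox8a had 5.69, 16.02 and 7.89 and then 9.30, 28.6 and 18.2 CPM (0.92, SE 0.168, adjusted p = 0.000656). Their median control RS level was 11.7 CPM, against 88.3 CPM for the members that fell. Of these 8, Uqcrc2 stood apart at 62.4 CPM, near the median of 61.2 CPM for members that did neither. All 7 members under 20 CPM in control PS had a positive log2 fold change in RS, from 0.38 to 1.12, against 14 of the other 70. The share of all genes at like levels with a positive value is not given here, so this count has no background. Over the 77 members Spearman's rho between the control RS level and the log2 fold change was -0.48, as a description in which both axes share the control libraries.

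There were 2 settings that moved the balance of these calls. In the fit of the RS libraries TMM factors ran from 0.873 to 0.943 in control RS and from 1.02 to 1.14 in KO RS. With library size as the only scaling the median over all genes in RS moved from 0.02 to 0.27 and that of the members from -0.38 to -0.08, still below all genes, and 2 members were called higher and 0 lower. With that dependence on length and GC removed along with the block, 26 members fell, where 33% of all genes did, and 16 rose, where 23.4% did. Of the 39 lower members 24 were lower there too, and all 8 higher members were higher. The median was then -0.16 over the members and -0.12 over all genes.

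**Figure D4:**
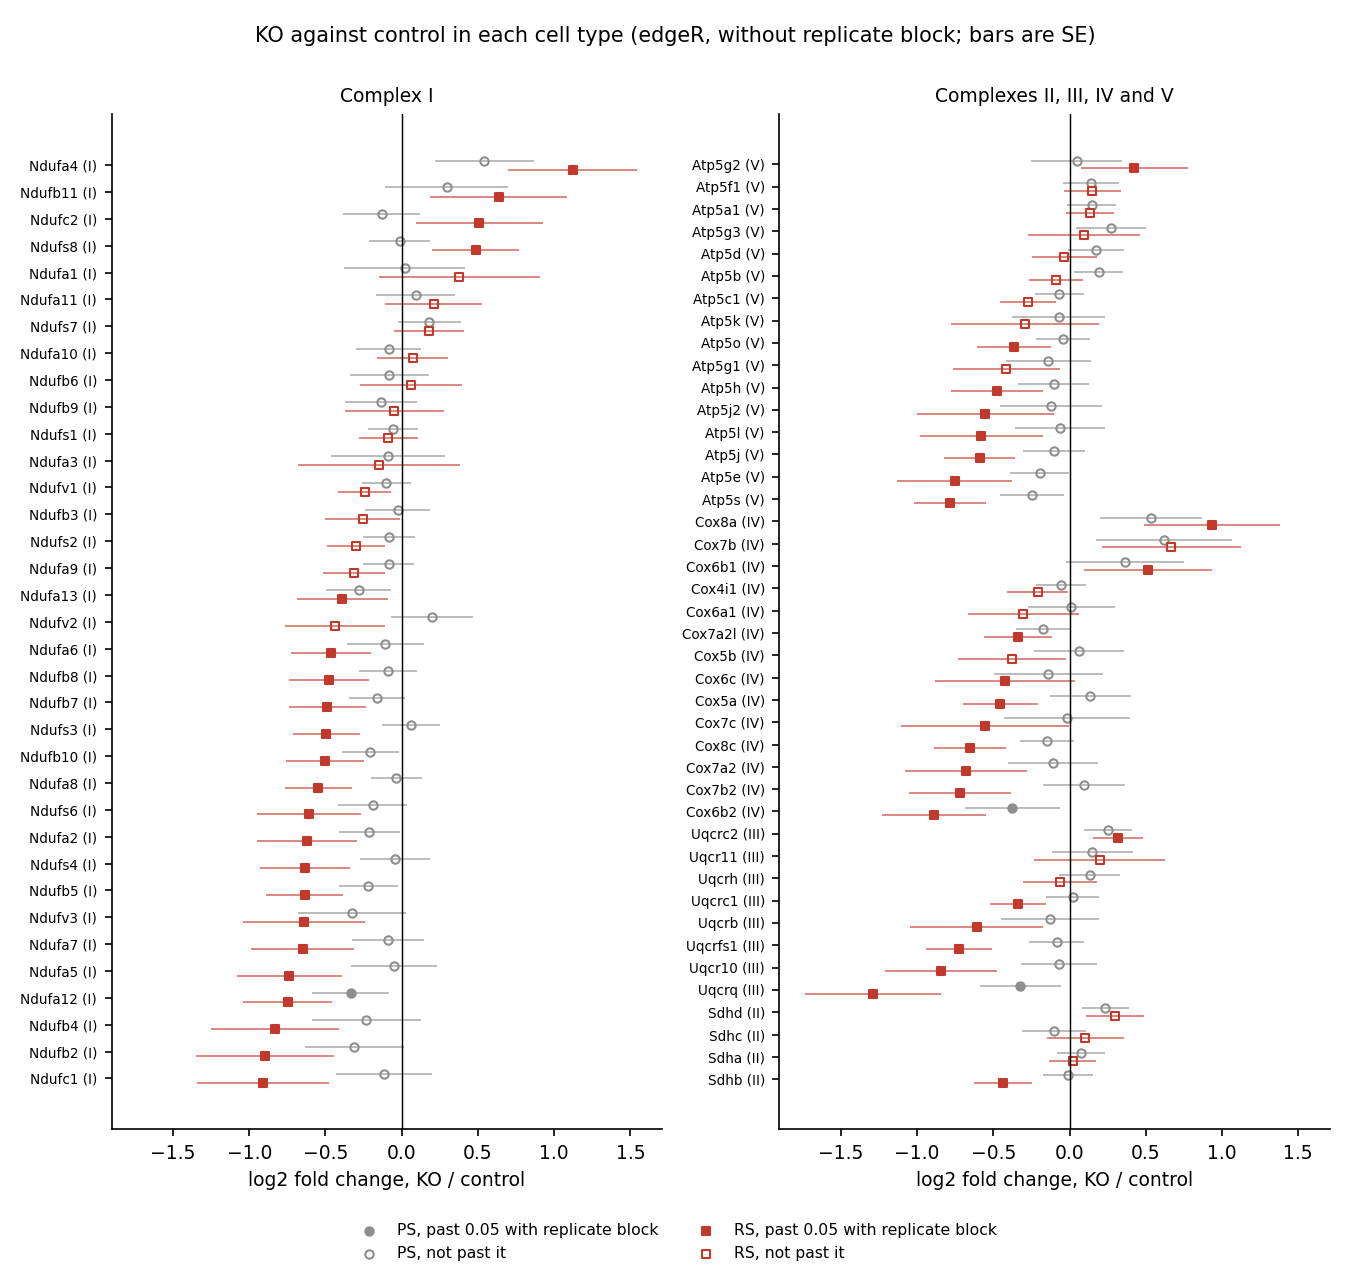
Log2 fold change of KO over control in PS (grey circles) and RS (red squares) for the 77 members tested, with SE, from edgeR without the replicate block. Filled symbols passed an adjusted p of 0.05 with the block: in RS, 39 filled squares lie below 0 and 8 above, and in PS 3 filled circles lie below.

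Isoform pairs of complex IV were compared as ratios within a library, which no scaling between libraries can move. The ratio of Cox6b2 to Cox6b1 counts was 17.5, 15.9 and 16.8 in control RS and 9.46, 5.46 and 5.47 in KO RS. For Cox7b2 to Cox7b it was 52.5, 63.0 and 40.5 and then 37.4, 20.6 and 13.8, and for Cox8c to Cox8a it was 34.3, 23.3 and 37.6 and then 17.4, 6.99 and 10.2. No KO library overlapped the controls in any of the 3 pairs. On the geometric mean the ratio was 2.55-fold, 2.33-fold and 2.89-fold higher in control RS for the 3 pairs (exact two-sided permutation p = 0.1 each, the smallest possible, and 0.3 after adjustment over 9 ratio comparisons). In PS the ratio of Cox6b2 to Cox6b1 was 27.9, 20.99 and 14.3 in controls and 14.7, 12.7 and 9.02 in KO, and that of Cox8c to Cox8a was 57.3, 34.96 and 41.8 and then 39.2, 23.6 and 23.4. Both were lower in each numbered pair, but the groups overlapped (exact permutation p = 0.2 each). The ratio of Cox7b2 to Cox7b was 64.9, 98.4 and 29.6 in control PS and 72.3, 56.02 and 18.8 in KO PS, higher in KO in replicate 1 and lower in the other pairs (exact permutation p = 0.6). The counts of Cox7b behind these ratios were 26 to 124 per library, so that ratio is the least precise.

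With the replicate block in RS, the testis forms fell: Cox6b2, Cox7b2 (log2 -0.66, SE 0.131, adjusted p = 0.00112) and Cox8c (-0.61, SE 0.141, adjusted p = 0.00312). The general forms Cox6b1 (0.50, SE 0.141, adjusted p = 0.00903) and Cox8a rose, and Cox7b stood at 0.59 (SE 0.284, adjusted p = 0.0937). Without the block none of these 6 genes passed in RS. With the block and the dependence on length and GC removed, Cox6b2 fell (-0.63, adjusted p = 0.00217), while Cox7b2 (-0.28, adjusted p = 0.0656) and Cox8c (-0.17, adjusted p = 0.283) did not pass. Cox6b1 (0.85), Cox8a (1.09) and Cox7b (0.88, adjusted p = 0.0171) rose there. Without the block and without control replicate 3 the log2 fold change of Cox7b2 was -0.26, and that of Cox8c was -0.43. Of other isoform families with the block, Cox4i1 stood at -0.19 (SE 0.128) and Cox6a1 at -0.26 (SE 0.127), and of the c subunit genes Atp5g2 rose while Atp5g1 (-0.33, SE 0.142) and Atp5g3 (0.06, SE 0.142) did not pass. Cox7a2, the general form of subunit 7a, fell (-0.57, SE 0.145, adjusted p = 0.00556), as did Cox7a2l. Neither passed with length and GC also removed (-0.27, adjusted p = 0.0939, and -0.0991, adjusted p = 0.4997). Without the block and without control replicate 3 they stood at -0.0779 and -0.15.

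Markers of other cells moved with genotype in the same RS libraries. Which cells the RNA of these markers came from was not tested. The summed level of 8 macrophage markers was 66.8 to 80.7 CPM in control RS and 148 to 207 in KO RS, that of 8 spermatogonia markers 65.4 to 92.3 and 184 to 257, and that of 10 Sertoli markers 38.5 to 68.7 and 52.0 to 278. Sums of 7 Leydig markers were 14.99 to 54.3 in control RS and 18.0 to 124 in KO RS, and of 8 peritubular markers 341 to 490 and 232 to 474. With edgeR without the block, 7 of 8 macrophage, 6 of 8 spermatogonia and 3 of 8 tested Sertoli markers rose in RS, and 5 of 10 RS markers fell. With the block the counts were 7, 6 and 6 of the same lists and 7 of 10 RS markers. No listed marker was at 0 in every library of a group. The general isoforms are expressed in somatic cells. The part of these cells in the ratios and in the rise of low members was not tested, and in bulk RNA fewer cells of a type cannot be told apart from less RNA per cell.

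The step from PS to RS was compared within each genotype. These comparisons use the same libraries as those of KO with control, so their values are not independent of them. Markers of other cells differed too: in the control step all 10 Sertoli and 6 of 7 Leydig markers were lower in RS, 7 of 8 macrophage markers were higher and 1 lower, and in the KO step 9 of 10, 6 of 7 and 7 of 8 moved the same way. Of 8 peritubular markers 2 were higher in RS in the control step and 7 in the KO step, and of 8 spermatogonia markers 3 and 7. The part of other cells in the steps was not tested. In controls 13 of 78 members were lower in RS, or 16.7%, where 30.9% of 16581 genes were lower, and 0 were higher, where 27.8% of all genes were (1 at an unadjusted p under 0.05, and 1 with DESeq2). In complex II 3 of the 4 members were lower. Sdhd, a membrane anchor of succinate dehydrogenase, went from 70.3, 69.1 and 74.2 CPM in PS to 26.1, 35.8 and 35.0 in RS (log2 -1.14, SE 0.157, edgeR adjusted p = 2.74e-05), and Sdhc, the other anchor, from 45.8, 53.3 and 76.5 to 22.0, 28.9 and 33.6 (log2 -1.06, SE 0.252, adjusted p = 0.00233). Sdha went from 242, 240 and 220 to 142, 138 and 141 (-0.74, SE 0.132, adjusted p = 0.000258). Sdhb, the iron-sulfur subunit, had 77.5, 76.6 and 88.0 CPM in PS and 59.0, 90.3 and 82.8 in RS (log2 -0.06, SE 0.171) and did not pass. Groups did not overlap for Sdha, Sdhc and Sdhd, and the share of all genes without overlap in this step is not given here.

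The other large falls were Ndufc2 of complex I (29.2, 46.5 and 36.9 CPM to 6.26, 18.3 and 9.60; log2 -1.72, SE 0.396, adjusted p = 0.00185), Uqcrc2 (160, 161 and 173 to 59.0, 63.9 and 64.4; -1.40, SE 0.143, adjusted p = 2.01e-06), Ndufs8, an iron-sulfur subunit of complex I (-1.18, SE 0.252), and Atp5g3 (-1.09, SE 0.345). Without control RS replicate 1 the count of lower members was 8, and without control RS replicate 3 it was 21. The RS level of Uqcrc2 was below that of PS in every library by more than the spread, whereas its partner Uqcrc1 stood at -0.14 (SE 0.170). Whether the core proteins differed in their step was not tested. Atp5a1 fell by 0.84 (SE 0.138, adjusted p = 0.000126), while Atp5b, with which it forms the catalytic head, stood at -0.12 (SE 0.150). Cox8c and Cox4i1 were the members of complex IV that fell, by 0.72 (SE 0.214) and 0.79 (SE 0.173). With the replicate block 34 members were lower (43.6%, against 37.2% of all genes) and 7 were higher (8.97%, against 32.4%), among them Atp5s, Atp5g1 and Ndufa7. With length and GC also removed none of these 7 passed (adjusted p = 0.465 for Atp5s, 0.954 for Atp5g1 and 0.997 for Ndufa7), and 0 members were higher, where 33.1% of all genes were. The median over members was -0.22 without and -0.28 with the block, against -0.09 over all genes in both.

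Within KO mice 21 of 78 members were lower in RS than in PS, or 26.9%, against 27.6% of all genes, and 0 were higher, where 30.5% of all genes were (0 at an unadjusted p under 0.05, and 0 with DESeq2). Of the 13 members lower in the control step 12 were lower here as well. All 4 members of complex II were among them, and Cox7b2 had the largest fall, from 164, 316 and 163 CPM to 64.7, 114 and 69.3 (log2 -1.37, SE 0.359, adjusted p = 0.00454). In controls Cox7b2 went from 172, 283 and 165 CPM to 86.4, 213 and 112 (log2 -0.59, SE 0.353, adjusted p = 0.164). With the block 55 members were lower (70.5%, against 34.9% of all genes), and Atp5g2 alone was higher (1.28%, against 34.6%). The median over members was -0.49 without the block, against -0.02 over all genes. Without control RS replicate 3 the count of lower members was 34, and without KO PS replicate 3 it was 13.

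**Figure D5:**
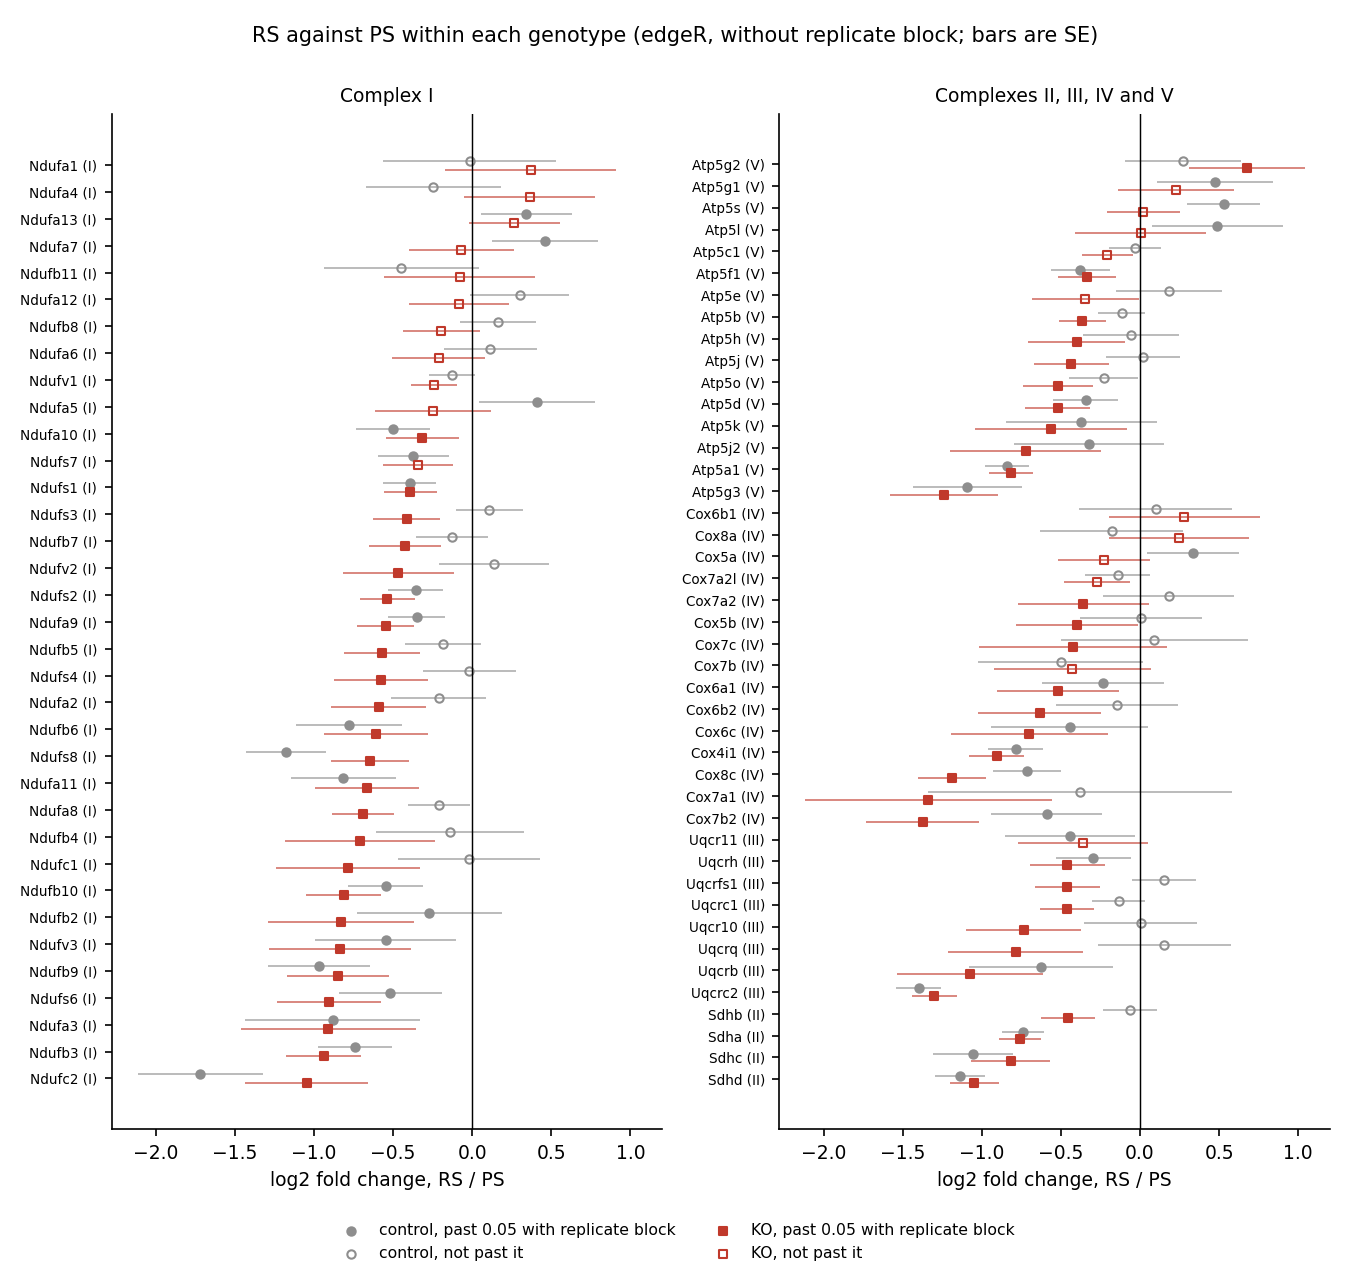
Log2 fold change of RS over PS in control (grey circles) and KO mice (red squares) for the 78 members tested, with SE, from edgeR without the replicate block. Filled symbols passed an adjusted p of 0.05 with the block, with 34 below 0 in controls and 55 in KO.

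The difference between the KO effects of the cell types was tested as an interaction of genotype and cell type over all 12 libraries. None of 78 members passed, where 0.0181% of all genes did, with 0 at an unadjusted p under 0.05 and 0 called with DESeq2. The median was -0.28 over the members and 0.11 over all genes. With the replicate block 2 members passed, both lower (2.56%, against 1.01% of all genes), Cox7b2 (-0.70, SE 0.168, adjusted p = 0.0187) and Uqcrfs1 (-0.58, SE 0.164, adjusted p = 0.0375). Cox7b2 was at 172, 283 and 165 CPM in control PS and 164, 316 and 163 in KO PS, about level, and went from 86.4, 213 and 112 in control RS to 64.7, 114 and 69.3 in KO RS. With length and GC also removed, 8 members passed as lower (6.42% of all genes did), namely Cox7b2, Uqcrfs1, Uqcrq, Uqcr10, Ndufa5, Ndufc1, Ndufs3 and Atp5j, and 1 as higher (4.23% of all genes), Ndufc2 at 0.74 (adjusted p = 0.0413).

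Genes around the respiratory chain were counted from lists of related functions, beside a background in RS of 18.7% of genes higher and 12.4% lower. Of the electron carriers and associated enzymes, 12 were tested, and in PS 2 fell and 0 rose while in RS 3 fell and 5 rose. Gpd2, the glycerol phosphate dehydrogenase that feeds ubiquinone, had 131, 133 and 155 CPM in control PS and 56.3, 49.5 and 92.3 in KO PS (log2 -1.04, SE 0.220, adjusted p = 0.0150), and fell in RS too (-0.62, SE 0.181, adjusted p = 0.0287). Sqor, a sulfide dehydrogenase that also reduces ubiquinone, fell in both (-0.81, SE 0.177, and -0.85, SE 0.166). Cyc1, the cytochrome c1 subunit of complex III that the symbol rule leaves out, had 12.3, 24.9 and 24.2 CPM in control RS and 29.3, 39.0 and 47.2 in KO RS and rose (0.92, SE 0.284, adjusted p = 0.0347). Cyct, testis cytochrome c, was at 88.3 to 164 CPM in control PS and 35.2 to 80.0 in control RS, against 14.7 to 36.1 and 11.01 to 28.9 for the general form Cycs, and neither passed with KO without the block. With the block Cyct fell in RS (-0.46, adjusted p = 0.0101), and Cycs rose in PS (0.54, SE 0.155, adjusted p = 0.0291) and in RS (0.49, SE 0.142, adjusted p = 0.0113).

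Of 51 assembly factors tested, 0 changed in PS (0 at an unadjusted p under 0.05, and 0 with DESeq2), while 7 rose and 3 fell in RS. Ttc19, a factor of complex III, had 3.42, 4.63 and 5.12 CPM in control RS and 14.2, 14.3 and 14.8 in KO RS (log2 1.73, SE 0.236, adjusted p = 0.00303), and Cox15, needed for haem A, rose by 1.41 (SE 0.304). Of 20 genes of the tricarboxylic acid cycle 4 rose in RS, among them Cs, citrate synthase (0.77, SE 0.176), and 2 fell, Sucla2 and Suclg1 of succinyl-CoA ligase. Of 19 genes for mitochondrial biogenesis and transcription 5 rose and 2 fell in RS. Pprc1, a coactivator related to PGC-1, went from 13.3, 12.1 and 13.8 to 49.0, 43.5 and 57.5 CPM (1.94, SE 0.184, adjusted p = 0.00249), and Ppargc1a, PGC-1 alpha itself, fell from 3.48, 4.83 and 3.58 to 1.96, 1.32 and 1.89 CPM (-1.20, SE 0.322, adjusted p = 0.0209). In PS Tfam, the packaging and transcription factor of mitochondrial DNA, fell from 19.5, 27.2 and 33.4 to 11.9, 14.3 and 15.5 CPM (-0.90, SE 0.242, adjusted p = 0.0468). The list genes that fell in PS were all higher in RS than in PS in controls, by a log2 of 2.47 for Tfam, 2.34 for Gpd2 and 2.24 for Sqor, and RS markers were lower in the same KO PS libraries. The part of that was not tested. Of 13 genes of coenzyme Q synthesis 2 rose and 1 fell in RS, and of 9 carriers 1 rose, Slc25a31, the germ cell exchanger of ADP and ATP (0.67, SE 0.186). With the block the RS counts higher and lower were 12 and 17 for assembly factors, 7 and 5 for electron carriers, 6 and 6 for the tricarboxylic acid cycle, 8 and 3 for biogenesis, 3 and 1 for coenzyme Q and 2 and 1 for carriers, where 28.8% of all genes rose and 26.1% fell. In PS with the block, where 10.6% of all genes rose and 12.1% fell, they were 1 lower for assembly factors, 2 higher and 3 lower for electron carriers, 2 higher for the cycle, 1 higher and 2 lower for biogenesis, 1 higher for coenzyme Q and 3 higher for carriers. Mitochondrially encoded subunits were not analysed here.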

How the data were processed

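Gene counts per library were deposited by the authors in 1 table per cell type. The submitters' processing notes name HISAT2 2.1.0, HTSeq, DESeq2 and mm10, and per the labels the RNA was extracted with TRIzol and prepared with a stranded total RNA kit. The deposited tables also hold the authors' log2 fold changes and adjusted p-values, used only where named, and 12 normalized columns that were not used here. Counts were tested with edgeR 4.0.16 in R 4.3.3 (TMM scaling, filterByExpr, quasi-likelihood F test, Benjamini-Hochberg threshold 0.05), with 1 fit per cell type and 1 over all libraries for the interaction and the steps. DESeq2 1.42.0 was an alternative. SE is the log2 fold change divided by the square root of F. The tests were tried on simulated data first. RPKM divides TMM-scaled CPM by the length of 1 transcript per gene.

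Replicates 1 and 3 were tied to titles by the labels, and the last column by elimination within its group. The numbers were taken to pair the samples, although the titles give replicate numbers and no pairing. Same-numbered libraries of a cell type had residual correlations of 0.310 to 0.408, against -0.416 to 0.0042 for others. Across cell types they were 0.134 to 0.495, against -0.478 to 0.199, and these ranges overlapped. The residuals are deviations from group means, so the correlations are not independent of each other. The members and lists were chosen with earlier results of these data known. Named genes were the isoform families, the highest member of each complex, up to 10 called members per KO comparison and direction, the 6 largest called falls of each step, and up to 5 called genes per list. Cox7c, Sdha, Sdhb, Uqcrc1, Atp5a1, Atp5b, Ndufa1, Ndufb11 and the members with NRF1 letters were named after their values were seen.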

Additional observations from a re-analysis of the deposited data

Results flagged for a closer look

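An interaction of genotype and cell type over all 12 libraries, blocked on replicate number, passed for 2 members. Both were lower, or 2.56% of those tested, against 1.01% of all genes. For Cox7b2 the log2 difference of the KO effect in RS from that in PS was -0.70 (edgeR adjusted p = 0.0187), and for Uqcrfs1 it was -0.58 (adjusted p = 0.0375). Without the block 0 of 78 members passed.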

How the results depend on the processing

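Counts of members depended on the setting, and the cause was not tested. The counts below stand without the share of all genes called, which moved with the setting too. For KO in RS 26.1% of all genes were lower with the block and 33% with both the block and the length and GC trend removed. With the replicate block, members higher and lower numbered 0 and 3 for KO in PS, 8 and 39 for KO in RS, 0 and 2 for the interaction, 7 and 34 for the control step and 1 and 55 for the KO step. With the length and GC trend removed they were 6 and 6 for KO in RS, with 39 lower in the control step and 64 in the KO step. With both block and trend they were 8 and 0 for KO in PS, 16 and 26 for KO in RS, 1 and 8 for the interaction, and 58 and 70 lower for the steps. With library size only, 2 were higher and 0 lower for KO in RS, and 20 and 13 lower in the steps. DESeq2 called 1 higher and 9 lower for KO in RS and 1 higher in the control step, RLE size factors 4 lower for KO in RS and 1 higher in the control step, and no filter on low counts 1 higher and 5 lower, with 1 higher in the control step. Leaving out the remaining libraries gave 0 lower for KO in RS and 7 and 10 lower for the steps. Leaving out all replicate 3 libraries, chosen after seeing the data, gave 1 higher and 0 lower for KO in RS.

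Signs were compared across all settings only for some of the named genes. Among those, Cox8c in PS reversed, to 0.15 with the trend and 0.16 with block and trend removed. Cox4i1 in RS reversed to 0.066 with library size only. Other members changed sign too. In RS, Cox6c stood at -0.35 with the block and at 0.075 with block and trend removed. Cox7c stood at -0.40 and 0.028 in the same settings. Leaving out single libraries gave ranges of -0.125 to 0.0481 percentage points for the share in PS and -0.134 to 0.0594 in RS, and -0.91 to 0.15 for the log2 Cox7b2 to Cox7b ratio in PS and -0.64 to 0.22 in the control step. The PS range was -0.82 to 0.0053 for Cox6b2 and -0.29 to 0.38 for Cox7b2. In RS it was -0.00188 to 0.995 for Cox6b1, -0.69 to 0.17 for Cox6a1, -0.71 to 0.0824 for Atp5g1 and -0.27 to 0.41 for Atp5g3. Without the block, counts ranged from 0 to 3 higher and 0 to 24 lower for KO in RS, 0 to 1 higher and 8 to 21 lower for the control step, and 13 to 34 lower for the KO step. The low counts of Cox7b limit its ratio.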
